A study of Homo sapiens with 12 samples.

Results

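The RNA sequencing of MDA-MB-231 and T47D cells was read for 10 secreted products of luminal breast cells: SERPINA6, MGP, CLEC3A, TFF1, TFF3, PIP, SCGB2A2, AZGP1, STC2 and AGR2. The genes were taken by symbol from the table of read counts, where all 10 were present among 23368 distinct gene symbols. Some were chosen by their high counts in T47D cells, so their difference between the cell lines is described below without a test. MDA-MB-231 is a breast adenocarcinoma line without the estrogen receptor (ER-), and T47D is a luminal line with it (ER+). Both were encapsulated as single cells in 6 wt. % hydrogels of poly(ethylene glycol) with a cell-degradable crosslinker and cultured for 3 days. The matrices carried either GFOGER, a mimic of collagen, or IKVAV, a mimic of laminin. RNA of 3 gels was pooled for each replicate, and counts were available for 3 libraries of T47D with GFOGER, 3 of T47D with IKVAV, 3 of MDA-MB-231 with GFOGER and 2 of MDA-MB-231 with IKVAV. A replicate is not stated to be a separate culture, so p-values measure only the spread between these libraries. Each group rests on a single established line, and no matrix without a peptide was sequenced here.

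The luminal cells of the mammary gland line the ducts and the milk-producing alveoli and release proteins into the lumen. Many genes for such proteins are driven by steroid hormone receptors together with the factors FOXA1 and GATA3, and several are used in pathology to trace a tumor to the breast. SERPINA6 encodes corticosteroid-binding globulin, the carrier of cortisol in plasma. MGP is matrix Gla protein, an inhibitor of calcification that needs vitamin K dependent carboxylation. PIP (prolactin-induced protein) and SCGB2A2 (mammaglobin A) are markers of breast origin, and AZGP1 is a secreted glycoprotein linked to lipid mobilization. TFF1 and TFF3 are trefoil peptides of mucous surfaces, and TFF1 is a classical estrogen target. STC2 is a stanniocalcin, a secreted glycoprotein hormone. CLEC3A is a C-type lectin best known from cartilage. AGR2 is a protein disulfide isomerase of the endoplasmic reticulum that is also secreted.

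The libraries held 14338238 to 18452145 counted reads, so that 3 counts corresponded to 0.171 to 0.203 cpm (counts per 1000000 counted reads, with totals scaled by TMM factors). Checked against markers, the lines matched their labels. The summed level of 6 luminal markers (KRT8, KRT18, KRT19, EPCAM, CDH1 and ESR1) was 4076 to 4672 cpm in T47D and 507.6 to 614.9 cpm in MDA-MB-231 libraries. The summed level of 6 basal or mesenchymal markers, led by VIM, was 4.33 to 5.83 cpm in T47D and 1607 to 2579 cpm in MDA-MB-231 libraries, while the basal keratins KRT5 and KRT14 were at 0 or 1 count in every library. In each line 1 library stood apart. The mean squared difference of T47D IKVAV replicate 3 from replicates 1 and 2 was 17.9 and 16.9 times the counting variance, against 5.50 between those 2. For MDA-MB-231 GFOGER replicate 3 it was 16.4 and 18.6 times the counting variance from replicates 1 and 2, against 2.51 between those 2. The deposited RPKM values also imply library totals of 2 kinds. These totals were 5191201 to 5774966 reads for all 3 T47D GFOGER libraries, T47D IKVAV 3 and MDA-MB-231 IKVAV 1, and 19898878 to 22840524 reads for the other 6 libraries. The counted reads did not split this way. They were 295.9% to 308.6% of the implied total for the lower kind and 72.06% to 81.17% for the higher kind. The lower totals were thus smaller than the reads counted in the same libraries. What set these libraries apart is not given in the sources used here. In T47D cells the GFOGER libraries therefore shared their kind of total with IKVAV 3 and not with IKVAV 1 and 2, and the T47D results below are given with and without IKVAV 3.

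SERPINA6, MGP and AGR2 were among the most abundant transcripts of T47D cells. Per length, in RPKM (cpm per kb of gene length, computed here from the counts), the mean level over 6 T47D libraries was 1974 ± 217 (SD) for SERPINA6, 1503 ± 172 for MGP and 1424 ± 298 for AGR2. These were ranks 2, 3 and 5 of all genes in the table. PIP followed with 675 ± 152 at rank 30. STC2 had 140.0 ± 10.6 and AZGP1 107 ± 35.4, at ranks 356 and 569. The levels of CLEC3A (8.97 ± 5.35), TFF3 (7.90 ± 2.28) and TFF1 (3.18 ± 1.13) lay far lower, at ranks 6888, 7349 and 9941. SCGB2A2 was at 0 to 2 counts in every T47D library and at 0 in every MDA-MB-231 library, which is at or under the limit of 3 counts. In this order MGP and AGR2, STC2 and AZGP1, CLEC3A and TFF3, and CLEC3A and TFF1 overlapped by their mean ± SD. The 10 genes together took 0.717% to 0.951% of all counted reads in T47D libraries and 0.00178% to 0.00445% in MDA-MB-231 libraries.

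**Figure D1:**
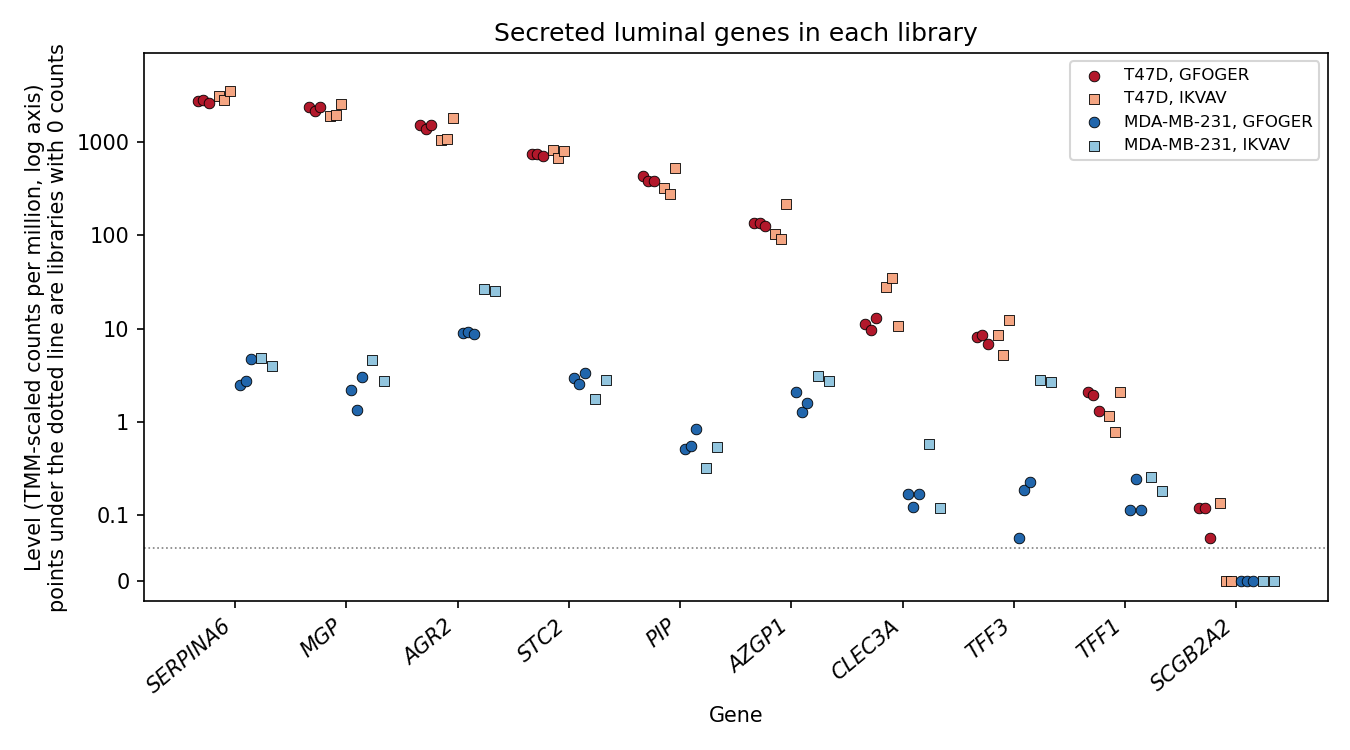
Level of each of the 10 genes in each of the 11 libraries, in cpm on a log axis, with circles for GFOGER, squares for IKVAV, red shades for T47D and blue shades for MDA-MB-231 cells. SERPINA6, MGP, AGR2 and STC2 lay above 600 cpm in every T47D library, and SCGB2A2 was near or at 0 in all libraries.

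On the deposited hg19 positions, SERPINA6 lies at chr14:94770585-94789688, MGP at chr12:15034115-15038853, AGR2 at chr7:16832264-16844738, STC2 at chr5:172741726-172756506, PIP at chr7:142829174-142836834 and AZGP1 at chr7:99564350-99573735. CLEC3A lies at chr16:78056443-78066001, TFF3 at chr21:43731777-43735706, TFF1 at chr21:43782391-43786644 and SCGB2A2 at chr11:62037630-62040628. No other gene of the table overlapped any of the 10. Promoter windows of 300 bases, 250 before to 50 after the start, were in the RefSeq table (GRCh38.p14) for 6 of the 10 genes: SERPINA6, PIP, SCGB2A2, AZGP1, STC2 and AGR2. The windows of 4 of them are printed 5′ to 3′. SERPINA6 and SCGB2A2 are shown because they stood at opposite ends of the levels, and PIP and AGR2 because they kept the same order of libraries in T47D cells (below). Capitals mark the motif letters found on either strand. These are TGTTTAC or TGTTTGC for FOXA factors (the latter printed as its reverse complement), GGTCA for the half-site of the estrogen receptor and AGATAA or TGATAA for GATA factors.
SERPINA6: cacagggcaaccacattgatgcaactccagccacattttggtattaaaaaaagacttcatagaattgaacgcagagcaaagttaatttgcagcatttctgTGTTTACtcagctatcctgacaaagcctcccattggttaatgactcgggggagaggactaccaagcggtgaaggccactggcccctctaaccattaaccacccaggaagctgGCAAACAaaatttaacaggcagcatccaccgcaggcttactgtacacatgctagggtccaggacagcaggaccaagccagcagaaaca
SCGB2A2: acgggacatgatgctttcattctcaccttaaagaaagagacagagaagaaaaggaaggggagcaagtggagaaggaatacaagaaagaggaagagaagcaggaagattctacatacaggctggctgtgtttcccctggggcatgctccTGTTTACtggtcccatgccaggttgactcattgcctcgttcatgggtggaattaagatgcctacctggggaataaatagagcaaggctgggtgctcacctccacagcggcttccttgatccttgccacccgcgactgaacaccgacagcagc
PIP: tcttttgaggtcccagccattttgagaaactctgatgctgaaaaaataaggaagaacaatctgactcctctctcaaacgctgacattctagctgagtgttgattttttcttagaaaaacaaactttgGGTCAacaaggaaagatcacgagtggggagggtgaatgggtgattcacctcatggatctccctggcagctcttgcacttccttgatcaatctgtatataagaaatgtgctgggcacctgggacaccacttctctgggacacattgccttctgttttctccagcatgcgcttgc
AGR2: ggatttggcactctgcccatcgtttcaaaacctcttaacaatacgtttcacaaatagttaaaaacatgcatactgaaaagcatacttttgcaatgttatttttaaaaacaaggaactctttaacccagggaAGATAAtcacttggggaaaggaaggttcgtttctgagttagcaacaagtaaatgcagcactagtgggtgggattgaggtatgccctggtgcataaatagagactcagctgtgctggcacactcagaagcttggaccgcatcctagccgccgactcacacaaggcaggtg

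The window of SERPINA6 is at chr14:94323287-94323586, minus strand, and that of SCGB2A2 at chr11:62269908-62270207, plus strand. The window of PIP is at chr7:143131827-143132126, plus strand, and that of AGR2 at chr7:16804950-16805249, minus strand. SERPINA6 held a FOXA motif 150 bases and another, on the reverse strand, 38 bases before its start, and SCGB2A2 held one 102 bases before its start. Of 35116 promoter windows of this length, 7.17% held a FOXA motif. The match was thus present both in the gene at rank 2 and in a gene with hardly a read. PIP held an estrogen receptor half-site 123 bases before its start and STC2 one 24 bases after it, and 37.4% of all windows held this short motif. AGR2 held a GATA motif 119 bases before its start, against 16.3% of all windows. AZGP1 held none of these, and none of the 6 windows held the palindromic estrogen response element, in which a pair of half-sites face each other across 3 bases (0.057% of all windows), or TATAAA (11.5%). A match describes these letters only and is not a binding site.

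SERPINA6, MGP and PIP showed the widest gap between the cell lines. SERPINA6 had 2945 cpm on average in T47D and 3.90 cpm in MDA-MB-231 libraries, a ratio of 754. The ratio was 750 for MGP (2214 and 2.95 cpm), 724 for PIP (389 and 0.537 cpm) and 284 for STC2 (748 and 2.63 cpm). It was 79.8 for AGR2, 70.6 for CLEC3A and 58.7 for AZGP1. It was smallest for TFF1 (8.27) and TFF3 (5.67), whose T47D levels were low. Over all genes tested, 46.3% were called between the lines (adjusted p below 0.05 and over 2-fold), and nothing is read from this contrast for the 10 genes. Fewer cells of a kind and less RNA per cell cannot be told apart in bulk samples.

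Expressed as a share of the T47D level, the MDA-MB-231 level was 0.133% for SERPINA6, 0.133% for MGP and 0.138% for PIP. Among the 2581 genes with at least 100 cpm in T47D cells, these were ranks 11, 12 and 14 from the lowest, and 22 genes lay under 0.2%. Because some of the genes were chosen by their high counts in T47D cells, these ranks only describe them. The share was 0.352% for STC2, 1.25% for AGR2 and 1.70% for AZGP1. At this depth the MDA-MB-231 libraries still held 44 to 84 reads of SERPINA6, 22 to 71 of MGP and 5 to 15 of PIP. Whether these few reads came from RNA of the MDA-MB-231 cells was not tested.

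Close relatives of these genes differed in which line expressed them. Among the trefoil genes, TFF2 had 48 to 77 counts in MDA-MB-231 and 0 to 3 in T47D libraries, the opposite of TFF1 and TFF3, although it lies between them, 11182 bases from TFF1 and 30760 bases from TFF3 (cell line difference of log2 -7.17, SE 0.46, edgeR quasi-likelihood test, adjusted p = 5.1e-11, with 4 of 6 T47D libraries at 0). STC1, the paralog of STC2, was at 75.3 ± 17.2 RPKM in MDA-MB-231 and at 3.20 ± 0.41 in T47D cells (log2 -4.46, SE 0.08, adjusted p = 1.4e-20). STC2 itself was at 0.506 ± 0.112 and 140.0 ± 10.6. AGR3, 54291 bases from AGR2, followed AGR2 with 128 ± 26.7 in T47D and 0.241 ± 0.083 in MDA-MB-231 cells (log2 8.99, SE 0.23, adjusted p = 2.7e-18). TFF2 passed the filter on low counts only through the MDA-MB-231 libraries and AGR3 only through the T47D libraries. The tests of TFF2 and AGR3 were thus conditional on being high there. SERPINA1, the antitrypsin gene 53395 bases from SERPINA6, was at 131 ± 14.5 in T47D and 61.3 ± 18.9 in MDA-MB-231 cells, a difference of log2 1.07 (SE 0.07, adjusted p = 7.0e-12). The pseudogene AZGP1P1, a copy of AZGP1 4649 bases away, had 12 to 36 counts in T47D libraries, against 1486 to 3683 for AZGP1. How reads shared by the copies were counted is not given in the sources used here.

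**Figure D2:**
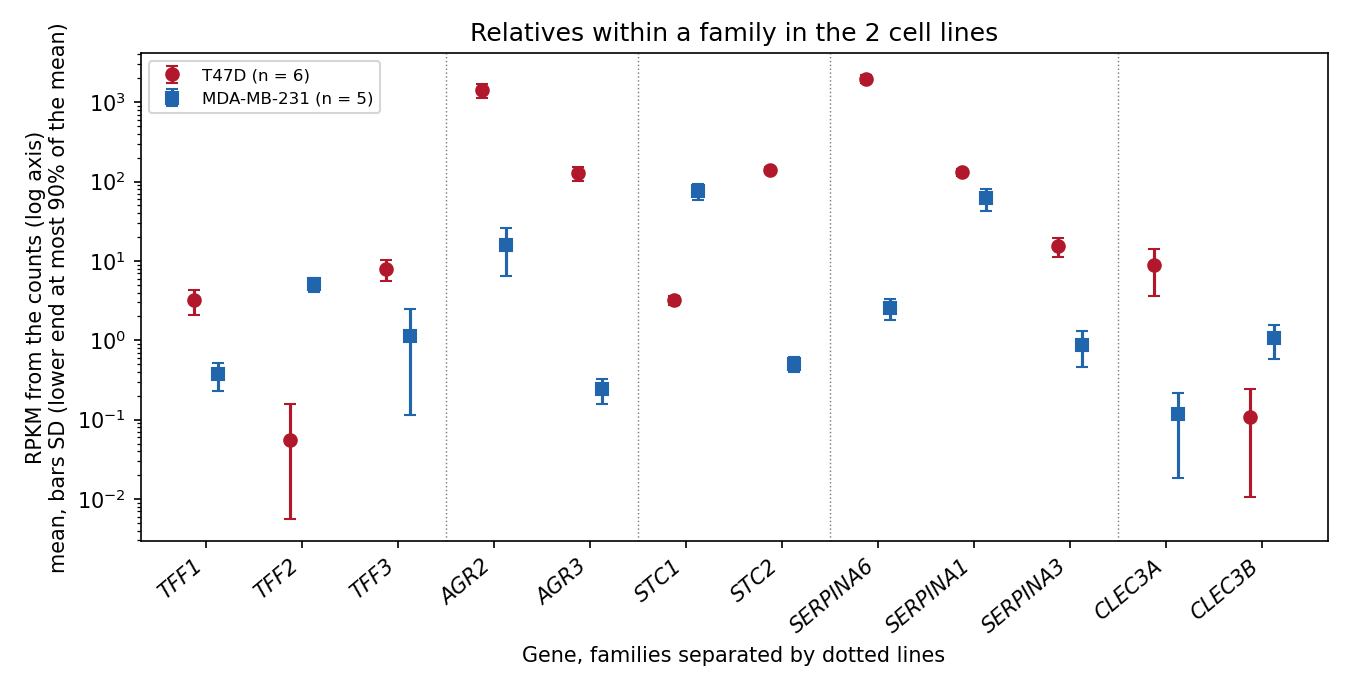
Mean level per length of the members and their relatives in T47D (red, n = 6) and MDA-MB-231 cells (blue, n = 5), in RPKM on a log axis with SD bars that are cut below where they would reach 0. TFF2 and STC1 were higher in MDA-MB-231 cells, opposite to TFF1, TFF3 and STC2.

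In T47D cells, the change from GFOGER to IKVAV gave no called difference for any of the 10 genes. Of them, 9 passed the filter on low counts and SCGB2A2 did not. Of 13642 genes tested, 0.022% were called, and 0 of the 9 were called, with 2 at an unadjusted p below 0.05 (1531 of all genes). Without regard to sign, their median log2 fold change was 0.141, against 0.114 for all genes. DESeq2 also called 0 of the 9. The most abundant of them, SERPINA6, had 2777, 2831 and 2617 cpm with GFOGER and 3113, 2814 and 3521 cpm with IKVAV. The groups overlapped, and the log2 fold change of GFOGER over IKVAV was -0.20 (SE 0.09, adjusted p = 0.42), and -0.12 without IKVAV 3 (SE 0.07, adjusted p = 0.36).

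CLEC3A had the largest difference in T47D cells. Its level was 11.1, 9.76 and 13.0 cpm with GFOGER and 27.9, 34.8 and 10.8 cpm with IKVAV. IKVAV 1 and 2 were thus well above every GFOGER library, while IKVAV 3 lay among them. The log2 fold change was -1.11 (SE 0.30) and did not pass (adjusted p = 0.20, quasi-likelihood test). Without IKVAV 3 it was -1.47 (SE 0.13, adjusted p = 1.9e-07) and CLEC3A was called, in a comparison that called 0.68% of 13830 genes. IKVAV 1 and 2 lay above every GFOGER library with IKVAV 3 not above for 12.1% of genes.

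MGP, AGR2, PIP and AZGP1 shared another order of libraries. AGR2 had 1522, 1398 and 1528 cpm with GFOGER and 1058, 1076 and 1818 cpm with IKVAV. PIP had 433, 385 and 379 cpm with GFOGER and 325, 280 and 531 cpm with IKVAV. AZGP1 had 135, 137 and 127 cpm with GFOGER and 103, 90.6 and 219 cpm with IKVAV. For each of these, IKVAV 1 and 2 lay below every GFOGER library and IKVAV 3 above all of them. MGP had the same order over a narrower range, at 2363, 2147 and 2379 cpm with GFOGER and 1905, 1956 and 2536 cpm with IKVAV. This order was found in 4 of the 9 genes and in 5.26% of all genes tested. IKVAV 3 was above every GFOGER library for 7 of the 9 genes, against 31.1% of all genes. Groups that did not overlap were found in 16% of all genes and in 0 of the 9.

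**Figure D3:**
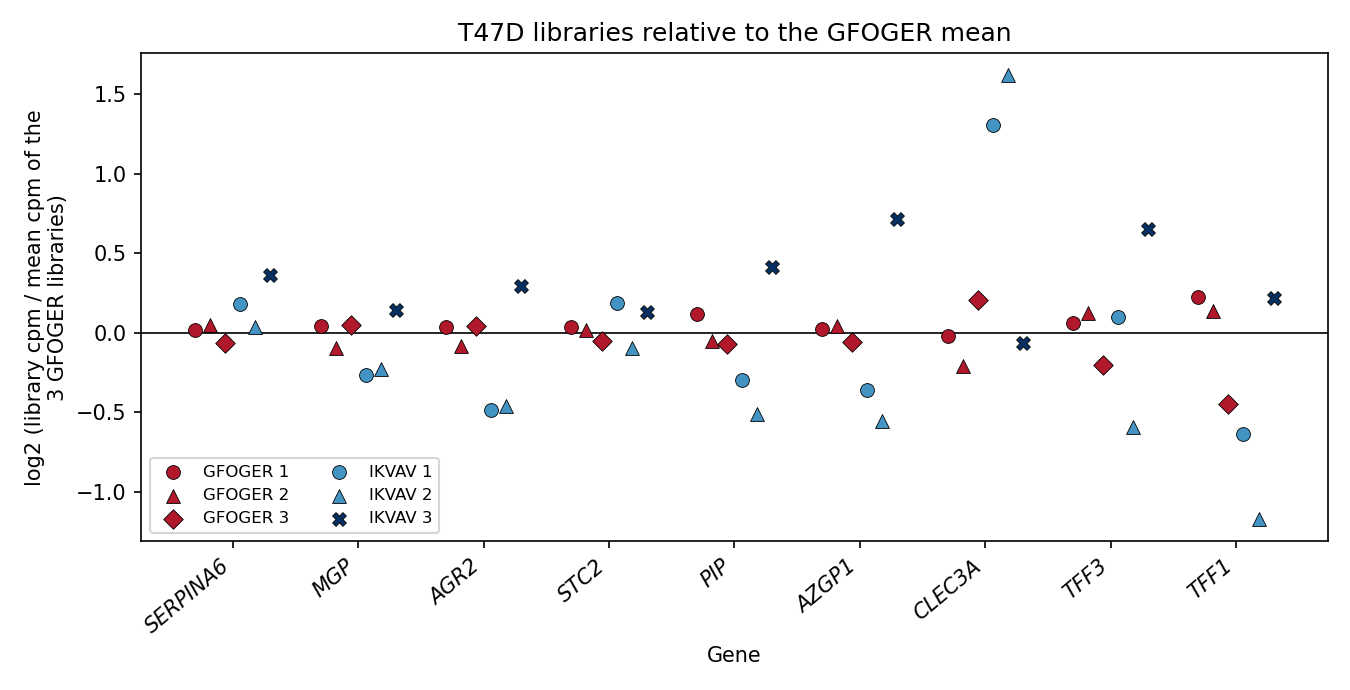
Level of 9 genes in each T47D library as log2 of its cpm over the mean of the 3 GFOGER libraries, with red symbols for GFOGER, light blue for IKVAV 1 and 2 and a dark cross for IKVAV 3. IKVAV 3 lay on the other side of the GFOGER libraries from IKVAV 1 and 2 for MGP, AGR2, PIP and AZGP1, and CLEC3A was higher in IKVAV 1 and 2 than in the other 4 libraries.

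The spread between IKVAV libraries was wider than that between GFOGER libraries for all 9 genes. AZGP1 had the largest coefficient of variation with IKVAV, 51.3%, against 3.66% with GFOGER, and IKVAV 3 was 2.26 times the mean of IKVAV 1 and 2. This ratio was 2.14 for TFF1, 1.82 for TFF3, 1.76 for PIP, 1.70 for AGR2, 1.31 for MGP and 1.19 for SERPINA6. CLEC3A went the other way, with a ratio of 0.345. It was 1.06 for STC2, the steadiest of the 9, which had 745, 736 and 702 cpm with GFOGER and 830, 679 and 796 cpm with IKVAV. TFF3 had 8.26, 8.63 and 6.89 cpm with GFOGER and 8.47, 5.25 and 12.5 cpm with IKVAV, with overlapping groups. TFF1 had only 13 to 35 counts in a T47D library, at 2.09, 1.96 and 1.31 cpm with GFOGER and 1.15, 0.793 and 2.08 cpm with IKVAV. Without IKVAV 3, the log2 fold change was -0.06 for STC2 (adjusted p = 0.74), 0.21 for TFF3 (adjusted p = 0.55) and 0.88 for TFF1 (adjusted p = 0.14). The summed level of the 6 luminal markers was 4566 to 4672 cpm over the 3 IKVAV libraries. Other luminal genes differed in IKVAV 3 in either direction. In IKVAV 1, 2 and 3, PGR had 1442, 1297 and 2000 cpm and AGR3 had 78.0, 82.6 and 133 cpm. GATA3 had 1203, 1037 and 895 cpm and CLU had 975, 973 and 697 cpm. The part of these genes in the results was not tested.

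Without IKVAV 3, 5 of the 9 genes had an adjusted p below 0.05 in T47D cells, whatever their fold, as had 7.62% of all genes (0.044% with IKVAV 3). Besides CLEC3A, these were AGR2 (log2 0.47, SE 0.07, adjusted p = 2.7e-04), AZGP1 (0.45, SE 0.08, adjusted p = 0.0016), PIP (0.40, SE 0.08, adjusted p = 0.0041) and MGP (0.25, SE 0.07, adjusted p = 0.034), all higher with GFOGER. When the kind of library total was a term in the fit instead, the matrix difference rested on IKVAV 3 alone against the GFOGER libraries, so these values are given without a test. AZGP1 was then at log2 -0.71, PIP at -0.41, AGR2 at -0.29, MGP at -0.14 and CLEC3A at 0.070, each with the opposite sign to its value without IKVAV 3. SERPINA6 kept its sign, at -0.36. Matrix and kind of total cannot be told apart for IKVAV 1 and 2.

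**Figure D4:**
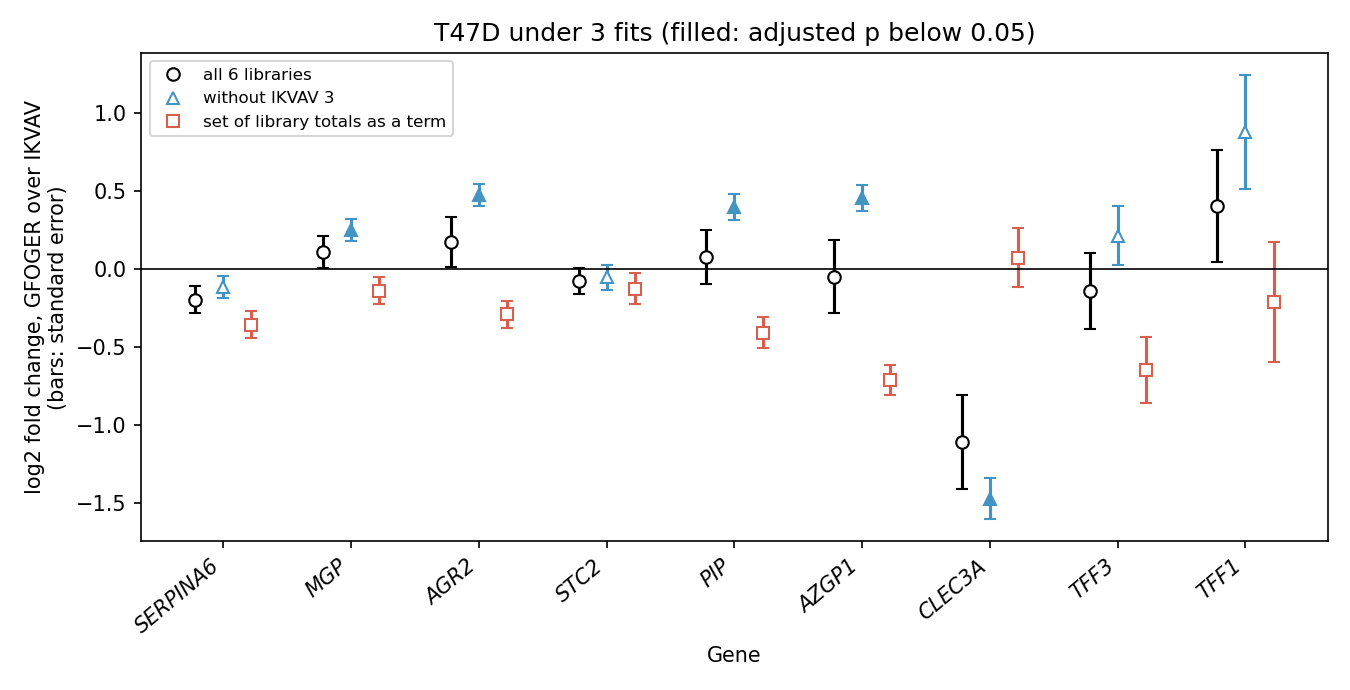
Log2 fold change of GFOGER over IKVAV in T47D cells with its standard error, with all 6 libraries (black circles), without IKVAV 3 (blue triangles) and with the kind of library total as a term (red squares). AGR2, PIP, AZGP1 and MGP lay above 0 without IKVAV 3 and below 0 with the term, and filled symbols have an adjusted p below 0.05, except that the fit with the term rests on 1 IKVAV library and is shown open throughout.

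In MDA-MB-231 cells, AGR2 and TFF3 were lower with GFOGER than with IKVAV. AGR2 had 8.91, 9.26 and 8.71 cpm in the GFOGER libraries and 27.0 and 25.3 cpm in the IKVAV libraries, from 150 to 156 and 416 to 419 counts. The groups were far apart and each was tight. The log2 fold change was -1.55 (SE 0.14, adjusted p = 2.6e-07), a level with IKVAV 2.91 times that with GFOGER. TFF3 had 1, 3 and 4 counts in the GFOGER libraries and 44 and 45 counts in the IKVAV libraries. From the summed counts, 8 and 89, the level with IKVAV was 17.8 times that with GFOGER, with a 95% exact interval of 8.66 to 42.5 that covers counting error only. TFF3 passed the filter on low counts only through the IKVAV libraries, where it was high, so its call was conditional on being high there (log2 -4.10, SE 0.50, adjusted p = 7.7e-06). With no filter the log2 fold change was -4.09 (SE 0.54, adjusted p = 9.2e-13), and at a minimum of 10 counts in every library it was not tested. In the T47D libraries it was at 5.25 to 12.5 cpm, still above the 2.85 and 2.71 cpm of MDA-MB-231 cells with IKVAV.

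In MDA-MB-231 cells 6 of the 10 genes passed the filter, where 9.57% of 14092 genes were called (6.46% lower with GFOGER), and AGR2 and TFF3 were called, both lower. AZGP1 had 37, 21 and 28 counts with GFOGER and 48 and 46 with IKVAV, a log2 fold change of -0.82 (SE 0.32, adjusted p = 0.048) that was under 2-fold. MGP had 39, 22 and 54 counts with GFOGER and 71 and 46 with IKVAV (log2 -0.73, SE 0.33, adjusted p = 0.090), and was called without GFOGER 3 (-1.03, SE 0.35, adjusted p = 0.0090). SERPINA6 had 44, 45 and 84 counts with GFOGER and 75 and 67 with IKVAV (log2 -0.41, SE 0.28, adjusted p = 0.26). STC2 had 52, 42 and 59 counts with GFOGER and 27 and 47 with IKVAV, in the opposite direction (log2 0.36, SE 0.30, adjusted p = 0.35). For AGR2, TFF3 and AZGP1 the GFOGER libraries were all lower than both IKVAV libraries, as for 30.7% of all genes tested, and the libraries of MGP, SERPINA6 and STC2 overlapped. PIP (5 to 15 counts), CLEC3A (2 to 9), TFF1 (2 to 4) and SCGB2A2 (0) were not tested. From summed counts, the level with IKVAV over that with GFOGER was 0.679 for PIP (95% exact interval 0.336 to 1.30), 2.20 for CLEC3A (0.806 to 6.30) and 1.40 for TFF1 (0.432 to 4.42). Each of these intervals includes equal levels, and they cover counting error only, not the spread between libraries.

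The AGR2 and TFF3 values were close with either kind of library total. MDA-MB-231 IKVAV 2 shared its kind with the GFOGER libraries and IKVAV 1 did not. Against the GFOGER mean, log2 was -1.49 with IKVAV 2 and -1.59 with IKVAV 1 for AGR2, and -4.11 and -4.19 for TFF3. Without GFOGER 3, log2 was -1.52 for AGR2 and -4.46 for TFF3. With either IKVAV library left out the fit has 1 IKVAV library, which is assumed to vary like the GFOGER libraries, and both genes were called in these fits too. For MGP the values were -0.32 with IKVAV 2 and -1.05 with IKVAV 1, and for STC2 0.070 and 0.77. As a share of the T47D level, AGR2 was at 0.640% with GFOGER and 1.87% with IKVAV and TFF3 at 1.88% and 33.4%. With IKVAV, SERPINA6, MGP, PIP, STC2 and AGR3 were at 0.151%, 0.167%, 0.111%, 0.306% and 0.198%. AZGP1 was at 2.17% with IKVAV, above AGR2. CLEC3A was at 1.965%, from 2 to 9 counts per library, and TFF1 at 14.05%, from 3 to 4 counts. Some sums of other markers differed with the matrix in these cells. The summed level of 5 fibroblast markers was 13.4 to 17.8 cpm with GFOGER and 24.5 to 24.7 cpm with IKVAV. That of the mesenchymal markers was 2428 to 2579 and 1607 to 1653 cpm. That of the luminal markers overlapped, at 507.6 to 614.9 and 558 to 575.8 cpm. Single genes differed from their sums. ZEB1 of the mesenchymal markers was lower with GFOGER (log2 -0.40, SE 0.09), as was CDH1 of the luminal markers (-0.97, SE 0.26). The part of these markers in the result was not tested.

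**Figure D5:**
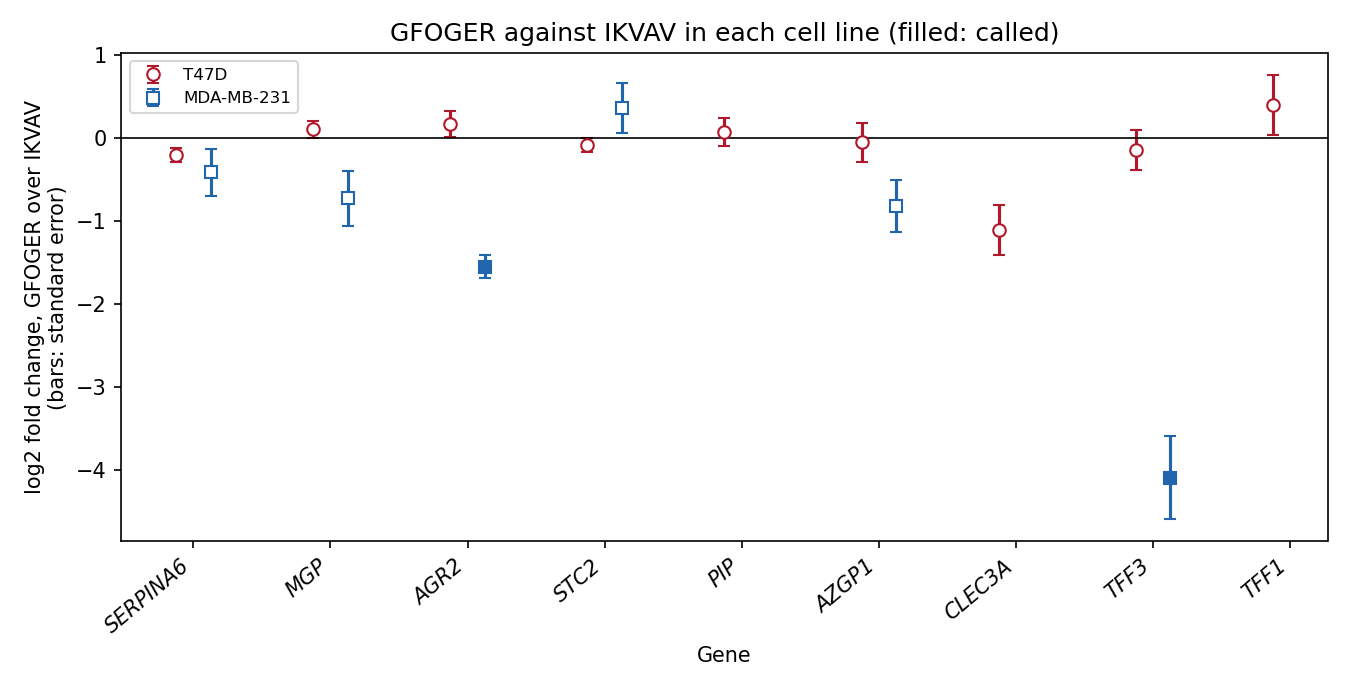
Log2 fold change of GFOGER over IKVAV with its standard error for the genes tested in T47D (red circles) and MDA-MB-231 cells (blue squares), filled where called. AGR2 and TFF3 were called in MDA-MB-231 cells, at -1.55 and -4.10, and no gene was called in T47D cells.

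The matrix difference of AGR2 and TFF3 was itself different between the lines. In a fit of all 4 conditions, the interaction (the log2 fold change of GFOGER over IKVAV in MDA-MB-231 minus that in T47D cells) was -1.71 for AGR2 (SE 0.24, adjusted p = 5.3e-05) and -3.95 for TFF3 (SE 0.59, adjusted p = 1.1e-04). These were the 2 of 9 genes tested that were called, where 6.42% of 15320 genes were called. Without T47D IKVAV 3, which raised the number called to 3, AZGP1 also had an interaction of -1.26 (adjusted p = 8.6e-04), against -0.76 (SE 0.51, adjusted p = 0.32) with all libraries. MGP was at -0.81 (SE 0.31, adjusted p = 0.064). It was called without MDA-MB-231 GFOGER 3 (-1.12, adjusted p = 0.014) and without MDA-MB-231 IKVAV 2 (-1.16, adjusted p = 0.033).

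Among 26 other secreted luminal and milk proteins, 10 were tested in MDA-MB-231 cells, and 5 were lower and 0 higher with GFOGER, where 6.46% of all genes were lower, with a median log2 of -0.94. CLU (clusterin) had 34.7 ± 3.7 cpm with GFOGER and 98.2 ± 2.9 with IKVAV (log2 -1.51, SE 0.11, adjusted p = 2.3e-08). LCN2 (lipocalin 2, which binds bacterial siderophores) had 68.3 ± 3.2 and 163.9 ± 6.3 cpm (log2 -1.27, SE 0.10, adjusted p = 3.4e-08). The protease inhibitor SLPI (log2 -2.41), LYZ (lysozyme, -1.10) and WFDC2 (-1.09) were the other 3. SLPI had 0, 13 and 9 counts with GFOGER and 33 and 41 with IKVAV. It passed the filter on low counts only because of the IKVAV libraries, so its call was conditional on being high there. STC1 did not follow them, with 340 ± 12.7 cpm with GFOGER and 221 ± 17.5 with IKVAV (log2 0.62, SE 0.09, adjusted p = 4.3e-05), which was under 2-fold. In T47D cells 8 of the 26 were tested and 0 called (quasi-likelihood test), also without IKVAV 3. LCN2 was at log2 0.85 there (SE 0.17, adjusted p = 0.084), opposite to its direction in MDA-MB-231 cells. Without IKVAV 3, 3 of the 8 passed at any fold, where 7.62% of all genes did. Among them LCN2 was higher with GFOGER (0.62, SE 0.09) and CLU lower (-0.39, SE 0.07). The interaction was called for CLU (-1.25), LCN2 (-2.12) and SLPI (-2.72), and without IKVAV 3 it was -1.11, -1.89 and -2.74. No casein or secretoglobin of the list passed the filter.

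Of 12 regulators of luminal genes, 11 were tested in MDA-MB-231 cells, and 0 were called as higher with GFOGER, where 439 of 14092 genes were. At any fold 4 regulators passed, where 42.9% of all genes did, and SPDEF (log2 0.39) and EHF (0.29) were the ones higher with GFOGER. ELF3, an epithelial transcription factor, was lower with GFOGER (log2 -2.06, SE 0.16, adjusted p = 4.7e-08). Of 15 estrogen receptor targets 14 were tested and 3 called, all lower with GFOGER (6.46% of all genes): MYB (-1.95), RERG (-1.90) and CA12 (-1.21). MYB had 2 to 9 counts with GFOGER and 17 to 27 with IKVAV, and RERG 5 to 8 and 22 to 25. Both passed the filter on low counts only through the IKVAV libraries, so their calls were conditional on being high there. At any fold 7 targets passed, with CCND1 (0.77) and NRIP1 (0.52) higher with GFOGER and IGFBP4 (-0.30) and ABCC5 (-0.33) also lower. The median was -0.08 for the regulators and -0.22 for the targets, against 0.00 for all genes. Of 26 genes of protein folding and the unfolded protein response, the compartment in which AGR2 works, all were tested and 0 called at over 2-fold, and 8 passed at any fold, where 42.9% of all genes did. Of the 3 genes of vitamin K dependent carboxylation, on which MGP depends, 0 were called. In T47D cells 0 genes of these 4 lists were called, with or without IKVAV 3.

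Between the cell lines, these lists were tested because they hold none of the 10 genes, although they were written with earlier results of these data known. Of 11 regulators tested, 9 were higher in T47D cells and 1, the glucocorticoid receptor NR3C1, was lower (log2 -2.83, SE 0.07), where 22.6% of all genes were higher and 23.7% lower. FOXA1 (9.11), PGR (9.05), ESR1 (8.83), GATA3 (5.81) and XBP1 (4.03) were among those higher on the log2 scale. Of 15 estrogen receptor targets, 12 were higher in T47D cells, led by CXCL12 (9.57) and GREB1 (7.68), and 2 were lower, IGFBP4 (-1.82) and CCND1 (-1.12). The other secreted proteins were split. Of the 11 tested, 5 were higher in T47D cells, among them AGR3, SERPINA3 (4.03) and CLU (3.79), and 5 were lower, among them TFF2, LYZ (-5.38), STC1 and CLEC3B (-3.77), the relative of CLEC3A. AGR3, TFF2, LYZ and CLEC3B passed the filter on low counts only through the line where they were high, so their calls were conditional on that. Of the 26 folding genes 3 were higher and 6 lower, and of the vitamin K genes 0 were called.

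For 8 of the 10 genes, the 3 genes with the most similar profile over the 11 libraries were sought, by the root mean square difference of centered log2 cpm. These profiles are dominated by the difference between the lines. IGFBP5, which encodes a secreted binding protein of insulin-like growth factors, was nearest to SERPINA6 (0.256), and SERPINA6 and MGP were each other's neighbors (0.260). PGR (0.303) was the third for SERPINA6 and FOXA1 (0.319) for MGP. STC2 had the closest match of all, the leucine-rich repeat gene LRRN3 (0.162), followed by SLC7A8 (0.202) and FLT4 (0.288). PIP was nearest to the calcium channel gene TRPV6 (0.293), OLFM1 (0.318) and ABCC11 (0.322), AZGP1 to TSPAN13 (0.288), KCNK2 (0.293) and MYRIP (0.312), and AGR2 to the estrogen-regulated RERG (0.279), ITGAL (0.296) and KCNMA1 (0.319). CLEC3A and TFF3 had more distant neighbors, with TNNI2 (0.430), ZNF793 (0.434) and C11orf93 (0.451) for the first and PLXNB1 (0.440), SPINT1 (0.574) and PCDH20 (0.586) for the other.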

How the data were processed

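RNA of MDA-MB-231 and T47D cells was sequenced by the authors after stranded poly-A capture. Per the labels and the submitters' processing notes, which name FastQC, Trim Galore 0.4.4, TopHat2 2.1.0, bedtools 2.17, SAMtools 1.4, HTSeq 0.6.1p1 and edgeR 3.16.5, reads were aligned to hg19 and counted on genes. The gene annotation and whether counting used strand are not given in the sources used here. The deposited table holds raw counts per gene and library, on which all tests were run. The RPKM values that the authors deposited beside them served only to recover the totals behind them. There are 24656 rows, and for the 1288 rows that repeat a symbol the row with most counts was kept. The table covers 11 of 12 libraries. MDA-MB-231 IKVAV replicate 3, omitted by the submitters, was not analysed here.

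Tests were run in R 4.3.3 (DESeq2 1.42.0, edgeR 4.0.16, limma 3.58.1). GFOGER was compared with IKVAV in a separate fit of each line, and all 4 conditions were fitted together for the interaction and the cell line difference (TMM, filterByExpr, edgeR's quasi-likelihood test, Benjamini-Hochberg over all genes tested). A gene was called at an adjusted p below 0.05 and over 2-fold. The biological coefficient of variation was 0.0975 in T47D and 0.0933 in MDA-MB-231 cells. Levels of different genes were compared only per length, from counts, the lengths in the table and TMM-scaled totals. The fits were tested on simulated data. The mean squared difference between replicates was 2.51 to 18.6 times the counting variance, so none was a repeated library.

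The members and gene lists were chosen with earlier results of these data known. Named besides the members are called genes of 5 lists (at most 5 in each direction), set relatives and regulators, and for each member with a mean log2 cpm of at least 2 in T47D cells its 3 nearest profiles. A result on one listed gene is not reported here. Other genes that were named beside a neighbor or relative, such as SERPINA1 from these lists and AZGP1P1 from outside them, were added after their values were seen. The matrix values of SPDEF, EHF, CCND1, NRIP1, IGFBP4, ABCC5, ZEB1 and CDH1 in MDA-MB-231 cells were also added afterwards. So were the levels of GATA3 and CLU in the single T47D IKVAV libraries. Alternatives were a block for the replicate number, one fit of all groups, leaving out each library, no filter, a minimum of 10 counts in every library, DESeq2, and scaling by upper quartile or by library size alone. The RPKM totals as a term and voom with sample quality weights were chosen after seeing the data.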

Additional observations from a re-analysis of the deposited data

Results flagged for a closer look

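The difference between GFOGER and IKVAV in TFF3 was not the same in the 2 cell lines. The interaction was -3.95 on the log2 scale (SE 0.59, edgeR quasi-likelihood test, adjusted p = 1.1e-04), from -4.10 in MDA-MB-231 and -0.14 in T47D cells, and it stayed called without any single library, at -4.32 to -3.57. It rests on 8 reads in all 3 MDA-MB-231 GFOGER libraries against 89 in the 2 IKVAV libraries, and at a minimum of 10 counts in every library TFF3 was not tested.

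AGR2 likewise had an interaction of -1.71 (SE 0.24, adjusted p = 5.3e-05), from -1.55 in MDA-MB-231 and 0.17 in T47D cells, and of -2.02 to -1.59 without any single library. With the RPKM totals as a term, where each line has 1 IKVAV library of the same kind as its GFOGER libraries, the values were -1.13 for AGR2 and -3.27 for TFF3, given without a test.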

How the results depend on the processing

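AGR2 and TFF3 in MDA-MB-231 cells kept their direction and call under the alternatives run, except that at least 10 counts in every library removed TFF3 from testing, which left 1 gene called in MDA-MB-231 cells and 1 in the interaction. In T47D cells 1 member, CLEC3A, was called with no filter, with voom and sample quality weights, and without IKVAV 3, against 0 otherwise. Leaving out each library gave 0 to 1 members called in T47D, 2 to 3 in MDA-MB-231 cells and 2 to 3 in the interaction, and 0 to 1 vitamin K gene called between the lines. That list also had 1 called gene with upper-quartile normalization and with no filter. Of all genes, 3 were called in T47D cells, and 6 with DESeq2, 5 with the replicate block and with all groups in one fit, 49 with the RPKM totals as a term, 146 with voom and 0 to 94 without 1 library (94 without IKVAV 3).

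Directions turned mainly in T47D cells. With the RPKM totals as a term, log2 fold changes were -0.14 for MGP, 0.070 for CLEC3A, -0.22 for TFF1, -0.41 for PIP and -0.29 for AGR2, and interactions 0.10 for SERPINA6, -1.56 for CLEC3A, 0.27 for TFF1 and 0.35 for AZGP1. With voom they were 0.23 for TFF3 and 0.35 for AZGP1, and the interaction of PIP was -0.021. Without 1 library, they ranged from -0.41 to 0.21 for TFF3, -0.10 to 0.40 for PIP and -0.28 to 0.45 for AZGP1. The interaction of CLEC3A was 0.0076, and -0.055 with DESeq2, -0.014 with upper-quartile normalization, -0.022 with library size alone, -0.013 with no filter and -0.76 to 1.46 without 1 library. The cause was not tested.

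Same-numbered replicates did not deviate together (correlations across genes of -0.18 to 0.04), so no shared shift by replicate number was seen. Whether they shared a culture or preparation is not given in the sources used here. With the replicate number as a block, AZGP1 in T47D cells was at 0.063, and MGP in MDA-MB-231 cells was called (-1.04, adjusted p = 0.0071), which gave 3 called there. MGP in MDA-MB-231 cells was also called without GFOGER 3 (-1.03), and AZGP1 without GFOGER 1 (-1.03). Depth limits PIP, CLEC3A and TFF1 in MDA-MB-231 cells and SCGB2A2 in both lines.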
